A study of Mus musculus with 16 samples.

Results

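The 10 genes described here encode the signalling chains of the T cell receptor (TCR) complex and the enzymes and adaptors that act next to it. They were chosen by name: Cd3e, Cd3d, Cd3g and Cd247 (CD3 chains), Lck, Zap70 and Ptprc (kinases and phosphatase), and Lat, Lcp2 and Themis (adaptors). They are 10 of the 55335 genes listed for 10 of the libraries, and of the 54532 listed for the other 6. RNA came from CD4 and CD8 double-positive (DP) mouse thymocytes sorted by flow cytometry, in 16 libraries of 5 groups. The first set held old WT (4 libraries), young METTL3 KO (3) and young WT (3). The second set held METTL3 KO (3) and WT (3) with a genotype and no age. METTL3 is the enzyme that places N6-methyladenosine on messenger RNA. The labels give no age in weeks, no strain, and no allele or Cre for the knockout. The labels do not say that replicates came from separate animals, so p-values measure the spread between these libraries, which may be technical.

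In a T cell, the TCR has no signalling tail of its own and relies on the CD3 chains. LCK, carried by the coreceptors CD4 and CD8, phosphorylates motifs in the CD3 tails, and ZAP70 docks there and phosphorylates the adaptors LAT and SLP-76, the product of Lcp2. At the DP stage this signal decides positive and negative selection, and it is tuned by the phosphatase CD45 (Ptprc) and by the thymocyte protein THEMIS.

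Gene counts per library summed to between 9781368 and 10307780 in the set with an age. They summed to between 10575795 and 13740694 in the METTL3 KO libraries without an age and between 15927134 and 16167074 in their WT counterparts. Mettl3 itself had 626, 653 and 647 counts in the libraries labelled young METTL3 KO and 678, 656 and 591 in young WT, so its level did not separate those groups. Without an age it had 394, 441 and 357 counts in METTL3 KO libraries and 835, 742 and 692 in WT libraries, a log2 difference of -0.58 ± 0.18 (SE, adjusted p = 0.0189, edgeR quasi-likelihood test with Benjamini-Hochberg adjustment), with adjusted p-values of 0.00126 to 0.0695 over the alternatives. Mettl3 shares 933 exonic bases with Tox4 on the opposite strand, and the strand setting of the counting is not given in the sources used here. Tox4 was also lower in METTL3 KO libraries without an age (log2 -1.27 ± 0.16, adjusted p = 0.000157, edgeR). In the young KO comparison its log2 difference was 0.06 ± 0.09. Reads of the 2 genes cannot be told apart here. Mitochondrial transcripts took 9.26%, 4.55% and 5.45% of gene counts in the METTL3 KO libraries without an age, against 1.59% to 2.48% in WT. Old WT replicate 3 stood apart from its set, with 9.59% of gene counts from mitochondrial transcripts against 1.98% to 2.84% in the other 9 libraries.

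All 10 genes passed the filter on low counts in every comparison, and levels are given as CPM (counts scaled to library size, with TMM factors). Per kilobase of the longest coding transcript, Lck stood first in young WT at 820 ± 15.1 CPM per kilobase, followed by Lat at 578 ± 19.2 and Cd3g at 486 ± 13.3 (SD, n = 3). Ptprc at 479 ± 11.5 CPM per kilobase overlapped Cd3g in its range. Cd3e, Themis, Cd3d and Cd247 lay between 226 and 152 CPM per kilobase, with overlapping ranges only for Themis and Cd3d. Zap70 at 94.4 ± 0.321 and Lcp2 at 80.6 ± 8.37 CPM per kilobase closed the order. The order depended on the length used: per kilobase of all annotated exons, Cd3d came next after Lat in young WT at 171 ± 6.76, ahead of Cd3g at 152 ± 4.17, and Ptprc was at 133 ± 3.2. In METTL3 KO libraries without an age, Lat led at 2050 ± 565 CPM per kilobase of transcript and Themis came last at 66.7 ± 14.7, whereas Themis was at 176 ± 48.9 in the WT libraries of that set.

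**Figure D1:**
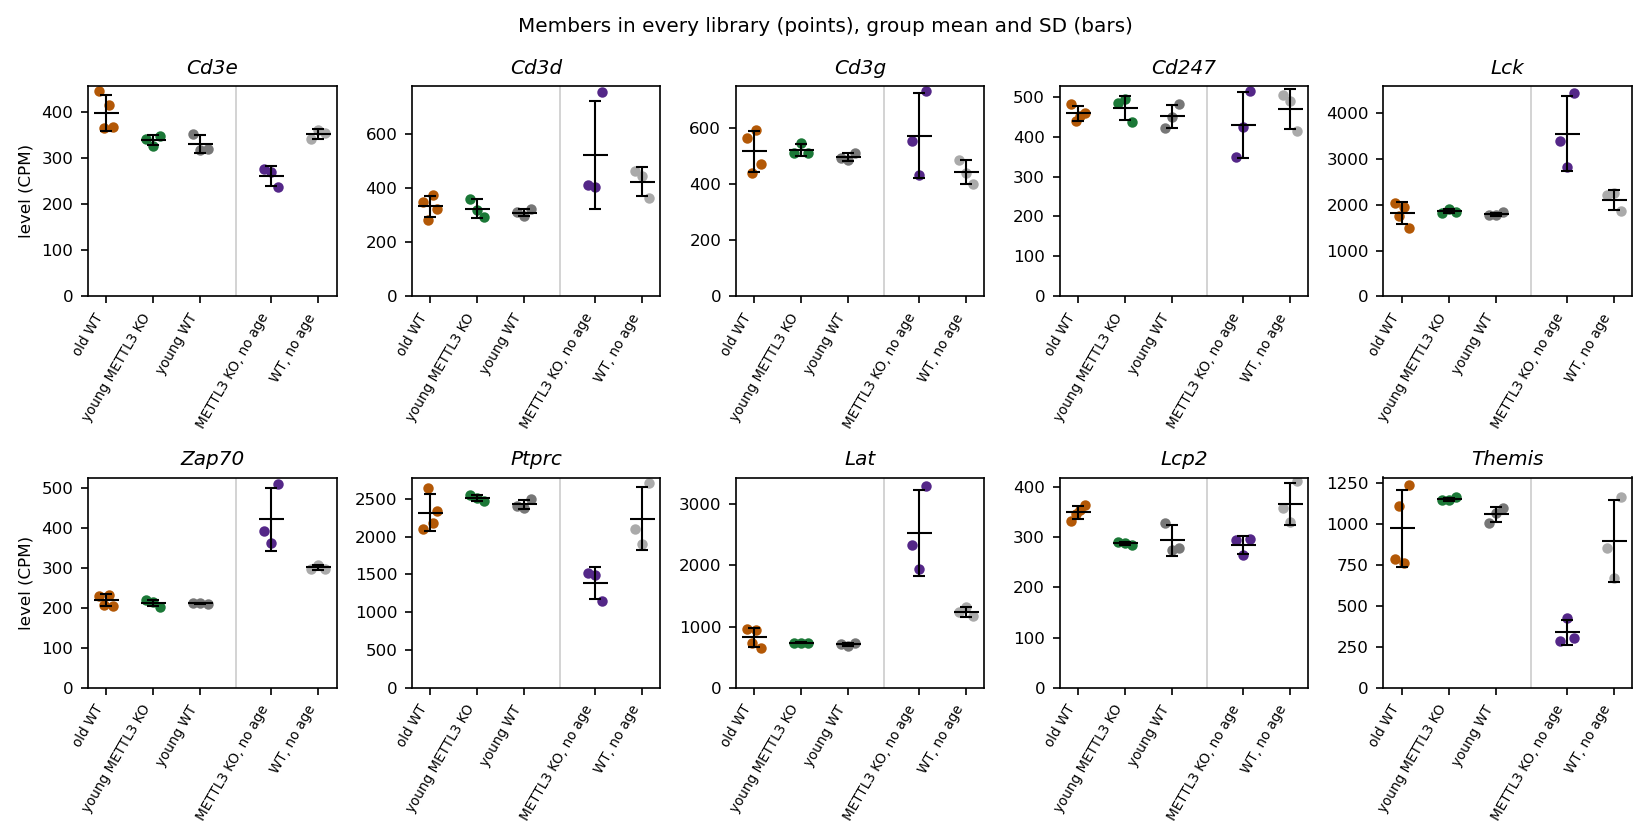
Level in CPM (linear axis from 0) of the 10 genes in each library, by group. Points are libraries and bars give the mean and SD of a group. In the set without an age, METTL3 KO libraries lie above WT for Lck, Zap70 and Lat and below WT for Cd3e, Ptprc, Lcp2 and Themis, with no overlap.

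The promoters of the 4 members whose difference between METTL3 KO and WT libraries without an age was called with and without a correction for GC content and length (Lat, Lck, Themis and Cd3e) are given here from RefSeq on GRCm38.p6. Each run is the 250 bases before a transcript start, 5′ to 3′ on the gene's strand. Lck has an upstream and a downstream start, the distal and proximal promoters, of which the proximal is known for its use in thymocytes. Capitals mark the core letters of motifs of factor families that act in thymocytes, on either strand: AGGAAG for ETS, TGTGGT for RUNX, CAGNTG for E proteins and CTTTGA for TCF.
Lat promoter (chr7:126369569-126369818, minus strand): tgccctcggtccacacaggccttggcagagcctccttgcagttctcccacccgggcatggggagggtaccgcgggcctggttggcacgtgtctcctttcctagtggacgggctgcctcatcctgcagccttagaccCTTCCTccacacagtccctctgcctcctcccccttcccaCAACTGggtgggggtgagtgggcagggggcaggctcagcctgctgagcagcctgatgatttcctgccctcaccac
Lck distal promoter (chr4:129573642-129573891, minus strand): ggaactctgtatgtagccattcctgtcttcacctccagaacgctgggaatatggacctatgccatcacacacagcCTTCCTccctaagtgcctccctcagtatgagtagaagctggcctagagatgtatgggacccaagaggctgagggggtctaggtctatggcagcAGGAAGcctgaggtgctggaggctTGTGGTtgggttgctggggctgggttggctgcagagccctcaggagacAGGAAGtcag
Lck proximal promoter (chr4:129558373-129558622, minus strand): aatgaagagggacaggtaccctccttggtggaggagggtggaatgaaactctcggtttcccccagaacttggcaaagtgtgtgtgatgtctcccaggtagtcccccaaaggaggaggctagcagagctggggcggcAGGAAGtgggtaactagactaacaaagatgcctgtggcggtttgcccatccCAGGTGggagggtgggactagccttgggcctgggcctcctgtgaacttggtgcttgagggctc
Themis promoter (chr10:28668110-28668359, plus strand): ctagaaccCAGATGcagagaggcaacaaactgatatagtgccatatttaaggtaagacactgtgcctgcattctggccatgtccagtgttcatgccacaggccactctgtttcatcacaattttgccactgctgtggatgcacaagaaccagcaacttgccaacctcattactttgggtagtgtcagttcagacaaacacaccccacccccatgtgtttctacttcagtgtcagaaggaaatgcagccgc
Cd3e promoter (chr9:45009612-45009861, minus strand): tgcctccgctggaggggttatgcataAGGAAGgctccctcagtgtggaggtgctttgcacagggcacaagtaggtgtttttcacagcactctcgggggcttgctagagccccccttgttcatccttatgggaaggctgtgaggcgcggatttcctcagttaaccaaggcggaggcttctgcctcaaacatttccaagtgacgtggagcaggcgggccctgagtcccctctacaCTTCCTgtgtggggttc
The ETS letters occurred in 29.5% of 32851 such windows of all genes, the RUNX letters in 14.0%, the E protein letters in 44.8% and the TCF letters in 13.8%. The Lck distal window held 3 ETS matches and 1 RUNX match, and the Cd3e window held 2 ETS matches. The Lat window and the Lck proximal window held 1 ETS and 1 E protein match each, and the Themis window shown held 1 E protein match. The window of another annotated Themis start (chr10:28668145-28668394, plus strand) held 0 matches of any of these motifs. The Lat window was 65.2% G or C, the Lck windows 56.4% and 58.0%, the Cd3e window 57.2% and the Themis window 48.0%. A match describes letters in the window and not a bound site.

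METTL3 KO against WT without an age asked what loss of the RNA methyltransferase did in DP cells, and here the members moved in opposite directions. Lat, Lck and Zap70 were higher in METTL3 KO libraries and Themis, Ptprc and Cd3e were lower, so 6 of 10 members were called. Across all 16432 genes tested 53.9% were called, 29.9% higher and 24% lower, so a count of 6 of 10 is near the background. The groups did not overlap for 7 of 10 members, against 63.8% of all genes tested. The members' median log2 difference was 0.09, against 0.08 across all genes.

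Of the CD3 chains, only Cd3e (mm10 chr9:44998740-45009627), the epsilon chain that pairs with both CD3 delta and CD3 gamma, was called. It had 276.4, 269.6 and 237.5 CPM in METTL3 KO libraries and 340.2, 359.7 and 355.1 CPM in WT libraries. All 3 METTL3 KO libraries lay below all 3 WT libraries. The log2 difference was -0.43 ± 0.14 (SE, adjusted p = 0.0233, edgeR), but it missed the threshold when libraries were scaled only by their totals (-0.33, adjusted p = 0.0906) or when WT replicate 2 was left out (adjusted p = 0.0527).

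Cd3d, the delta chain, had 413.8, 404.9 and 755.4 CPM in METTL3 KO libraries and 464.4, 446.3 and 363.9 CPM in WT libraries. METTL3 KO replicate 3 was the one high library, and the groups overlapped. Cd3g, the gamma chain, had 555.6, 432.6 and 734.6 CPM in METTL3 KO libraries and 487, 441.2 and 401.6 CPM in WT libraries, with replicate 3 again the highest. Its log2 difference of 0.37 ± 0.20 was not called (adjusted p = 0.126, edgeR), but was without METTL3 KO replicate 2 (adjusted p = 0.0402). Cd247, which encodes the zeta chain with the most phosphorylation motifs, had 348.6, 423.8 and 514.4 CPM in METTL3 KO libraries and 504.7, 488.5 and 412.8 CPM in WT libraries. The ranges overlapped almost entirely, and its log2 difference was -0.13 ± 0.18 (adjusted p = 0.56, edgeR). Cd247 shares 3007 exonic bases with Pou2f1 on the opposite strand, and since the sources used here do not state whether counting was stranded, reads from the 2 genes cannot be told apart.

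Lck (mm10 chr4:129548344-129573641), the kinase that opens the cascade, had 3377, 2830 and 4436 CPM in METTL3 KO libraries and 2208, 2253 and 1862 CPM in WT libraries. Every METTL3 KO library was above every WT library. The log2 difference was 0.75 ± 0.20 (1.68-fold, adjusted p = 0.00746, edgeR), and the call was lost without WT replicate 3 (0.62, adjusted p = 0.0516). Zap70 (mm10 chr1:36761798-36782818), the kinase recruited to phosphorylated CD3 tails, had 391.9, 362.5 and 511.5 CPM in METTL3 KO libraries and 298.3, 308.2 and 298.5 CPM in WT libraries. The groups did not overlap, and the log2 difference was 0.48 ± 0.16 (adjusted p = 0.0258, edgeR). That call was lost with no filter on low counts (0.29, adjusted p = 0.197) and without any one of the 3 WT libraries or of METTL3 KO replicates 1 and 3 (adjusted p = 0.0509 to 0.132), and without METTL3 KO replicate 3 the difference was 0.25.

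Ptprc (mm10 chr1:138062861-138175708), whose product CD45 removes the inhibitory phosphate from LCK, had 1518, 1491 and 1147 CPM in METTL3 KO libraries and 2098, 1905 and 2703 CPM in WT libraries. All METTL3 KO libraries were lower, and the log2 difference was -0.69 ± 0.19 (adjusted p = 0.00955, edgeR). The offset for GC content and length described after the members ended this call and turned its direction (0.16, adjusted p = 0.276, edgeR).

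Lat (mm10 chr7:126363824-126369570), the membrane adaptor phosphorylated by ZAP70, had the largest positive difference in the fit without an offset. It had 2335, 1949 and 3303 CPM in METTL3 KO libraries and 1232, 1321 and 1169 CPM in WT libraries, a log2 difference of 1.03 ± 0.20 (2.04-fold, adjusted p = 0.0016, edgeR). The lowest METTL3 KO library was well above the highest WT library. Themis (mm10 chr10:28668360-28883818), which binds GRB2 and the phosphatase SHP-1 and is needed for positive selection, had the most negative one in that fit. It had 287.7, 424.6 and 304.8 CPM in METTL3 KO libraries and 852.4, 673.5 and 1165 CPM in WT libraries, a log2 difference of -1.40 ± 0.22 (2.65-fold lower, adjusted p = 0.000493, edgeR). The calls of Lat and Themis and their directions held under every alternative run, but with the offset their log2 differences were 0.41 and -0.42, so that Lck (0.55) and Cd3g (0.47) exceeded Lat and Cd3e (-0.42) equalled Themis.

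Lcp2 (mm10 chr11:34046920-34092295), which encodes the cytosolic scaffold SLP-76, had 294.1, 264 and 295.9 CPM in METTL3 KO libraries and 357.9, 329.7 and 411.5 CPM in WT libraries. The groups did not overlap, but the log2 difference of -0.36 ± 0.15 missed the threshold (adjusted p = 0.0581, edgeR), with DESeq2 giving 0.0488. It was called without WT replicate 2 (adjusted p = 0.0476) or without METTL3 KO replicate 3 (adjusted p = 0.014). Over the 12 alternatives its log2 difference lay between -0.55 and 0.12 and its adjusted p between 0.00838 and 0.433 (edgeR or DESeq2). With the offset its difference was 0.12 (adjusted p = 0.433, edgeR), of the other sign.

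Transcript composition moved with these differences. The members called higher had GC-rich transcripts, 57.9% for Lat, 59.6% for Zap70 and 54.3% for Lck, with longest coding transcripts of 1235 to 2245 bases. Themis and Ptprc, called lower, had transcripts of 38.5% and 42.7% GC and 5082 and 5074 bases, while Cd3e, also called lower, was at 50.5% and 1462 bases. Across genes, the median of the top quintile of genes by GC exceeded that of the bottom quintile by 0.90, 0.82 and 1.41 (log2 deviation from the WT mean) in the METTL3 KO libraries, against 0.08, 0.23 and -0.30 in WT libraries. The quintile of longest transcripts lay below that of the shortest by a log2 value of -0.78, -0.53 and -1.33 in METTL3 KO libraries.

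A fit with an offset that smooths out GC content and length in each library, added after the data were seen, was therefore run beside the first. With it, Lat (0.41, adjusted p = 0.0139) and Lck (0.55, adjusted p = 0.0038) stayed higher, and Themis (-0.42, adjusted p = 0.0374) and Cd3e (-0.42, adjusted p = 0.0326) stayed lower in METTL3 KO libraries (edgeR). Zap70 (-0.07, adjusted p = 0.645) and Ptprc (0.16, adjusted p = 0.276) changed sign and were no longer called. Lcp2 (-0.36 without the offset, 0.12 with it) and Cd247 (-0.13 and 0.39) changed sign too, with a call in neither fit. Cd3g became called (0.47, adjusted p = 0.0095). The log2 difference of Cd3e was nearly the same in both fits, while that of Themis was much smaller with the offset. The offset removes any difference that runs with GC or length, whatever its source, which cannot be told apart here. It also moved the median of all genes from 0.08 to 0.22, and the share of called genes that were higher from 55.5% to 68.3%.

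**Figure D2:**
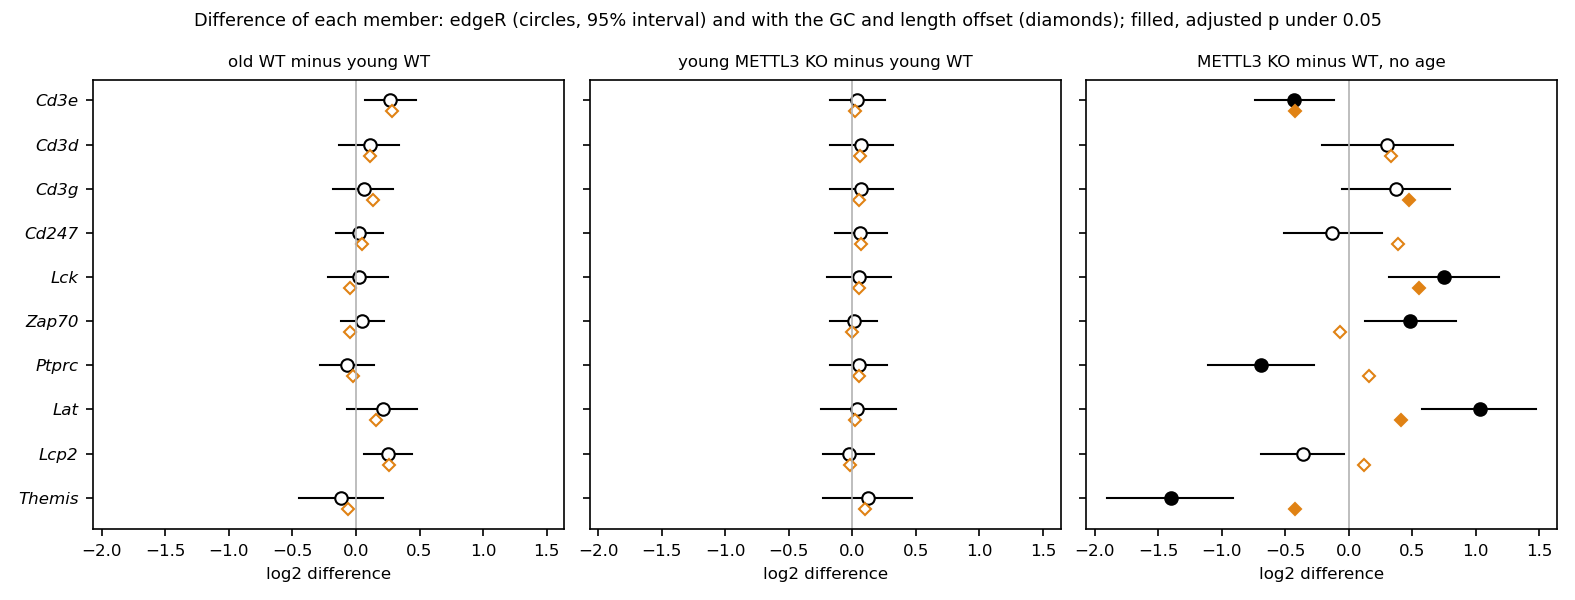
Log2 difference of each member in 3 comparisons, with the first-named group minus WT. Circles and lines are edgeR estimates with 95% intervals, diamonds are estimates with the GC and length offset, and filled symbols have an adjusted p under 0.05. Filled symbols occur only in the set without an age, where Zap70 and Ptprc lose theirs with the offset.

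Markers of other cells moved in the same comparison, and their part in it was not tested. The summed level of the 12 DP stage markers, which include Themis, was 8880 to 11300 CPM in METTL3 KO libraries and 16800 to 18700 CPM in WT libraries, and 6 of them were called lower. Summed B cell markers were at 713 to 1160 CPM against 531 to 630 CPM, and 8 of the 10 tested were called higher. Dendritic markers were at 65.1 to 150 CPM against 27.2 to 43.6 CPM (7 of 8 tested called higher), and myeloid markers at 38 to 49.3 CPM against 15.2 to 24.7 CPM (4 of 9). Across all genes tested in this comparison, 29.9% were called higher and 24% lower. Clec9a, Batf3 and Cd14 were at 0 in the 3 WT libraries, and none of the 12 DP stage markers was at 0 in any group. Mature single-positive markers summed to 831 to 942 CPM against 919 to 1030 CPM. Yet 8 of these 12 genes were above 0 in log2 difference (median 0.17), with 2 called higher and 2 lower. Double-negative markers summed to 74.7 to 188 CPM against 233 to 251 CPM. Of these 9 genes, 7 were above 0 (median 1.04), with 3 called higher and 1 lower. In bulk RNA, fewer cells of a type and less RNA per cell cannot be told apart.

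The other genes of the pathway, 61 in 5 lists, showed more falls than rises in METTL3 KO libraries without an age: 11 were called higher and 25 lower, against 29.9% and 24% of all genes. The offset gave 16 higher and 19 lower, with 25 of the 36 calls kept in the same direction and 3 changed in sign. Its background differs: over all genes 8128 were called with the offset, 68.3% of them higher. Without the offset 8864 were called, 55.5% of them higher. The receptor chains Trac, Trbc1 and Trbc2 and the pre-TCR chain Ptcra gave 0 calls by edgeR without the offset. Trac (0.34) and Trbc1 (0.53) passed at an unadjusted p under 0.05, and DESeq2 called 2 of the 4. With the offset, edgeR called Trac (0.4, adjusted p = 0.0261) and Trbc1 (0.38, adjusted p = 0.0163) higher. Among coreceptors and regulators of Src kinases, Cd4 averaged 950 ± 176 CPM in METTL3 KO libraries and 1650 ± 89.7 CPM in WT libraries (SD, n = 3 each), a log2 difference of -0.79. Cd8a (-0.21) and Cd8b1 (-0.24) were not called. Pag1, which anchors the LCK inhibitor CSK, fell by 1.27 on the log2 scale, and stayed called with the offset, as did Cd4. Unc119, which activates LCK, averaged 14.8 ± 4.72 CPM in METTL3 KO libraries and 7.28 ± 0.592 CPM in WT libraries (log2 1.02), a call that the offset ended (0.33). Ptpn22 (-0.15 without the offset, 0.31 with it) became called higher.

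Of 16 partners of LAT and SLP-76, 4 were called higher and 7 lower. The phospholipase gene Plcg1 (0.47), the exchange factor gene Vav1 (0.60), Tec (0.62) and Sh3bp2 (0.62) were higher. The adaptors Grb2 (-0.83), Grap2 (-0.87), Fyb (-0.85) and Nck1 (-1.61) and the RAS exchange factors Rasgrp1 (-1.34), Sos1 (-0.74) and Sos2 (-0.92) were lower. Rasgrp1 averaged 352 ± 102 CPM in METTL3 KO libraries and 890 ± 111 CPM in WT libraries. With the offset, Rasgrp1 (-0.70), Nck1 (-0.75), Grb2 (-0.78), Grap2 (-0.46) and Fyb (-0.58) stayed called, Sos2 (-0.15) and Sh3bp2 (0.37) did not, and Sos1 (0.36) was called in the other direction. Tespa1 (0.16 without the offset, 0.42 with it) and Skap1 (0.08 and 0.48) became called higher.

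Among 18 genes listed as negative regulators, 6 were called higher and 7 lower. Whether each of them, Themis2 and Ptpn11 included, acts negatively in DP cells was not tested. The diacylglycerol kinases Dgka (0.86) and Dgkz (1.05), which remove the activator of RASGRP1, rose together, as did Lax1 (0.95), Dok2 (0.80), Ptpn6 (0.67) and Themis2 (2.27). Dgka averaged 1390 ± 122 CPM in METTL3 KO libraries and 770 ± 15.6 CPM in WT libraries, while Themis2 was near the lower limit of detection at 3.67 ± 0.597 and 0.755 ± 0.266 CPM. The ubiquitin ligases Cbl (-1.85) and Cblb (-0.84), the phosphatases Ptpn11 (-1.31) and Ptpn2 (-0.48), the receptor-lowering adaptor Sla (-1.28), Ubash3a (-0.86) and the surface inhibitor Cd5 (-0.60) fell. With the offset Cblb (-0.10), Ptpn2 (0.18) and Ubash3a (-0.19) lost their calls. Cd6 (-0.06 without the offset, -0.39 with it) and Dok1 (-0.07 and -0.58) became called lower.

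The calcium, NF-kB and ERK steps were the list with most falls, 9 of 14 called lower and 0 higher, with a median log2 difference of -0.67. Nfatc3, a calcineurin-activated transcription factor, averaged 226 ± 45.1 CPM in METTL3 KO libraries and 946 ± 172 CPM in WT libraries (log2 -2.06). Itpkb (-1.02), Nfatc1 (-1.05), Stim1 (-0.85), Bcl10 (-0.89), Malt1 (-0.85), Itpr1 (-0.76), Ppp3cb (-0.58) and Map2k1 (-0.52) were also lower. With the offset 5 of these 9 calls kept their direction, Nfatc3 among them at -1.30. Malt1 (-0.07), Itpr1 (-0.07), Map2k1 (-0.44) and Ppp3cb (0.21) lost theirs. The calcium channel gene Orai1 (-0.66, against -0.09 without the offset) became called lower. The calcineurin subunit gene Ppp3ca (1.11, against 0.41 without the offset) became called higher (adjusted p = 0.0015, edgeR).

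**Figure D3:**
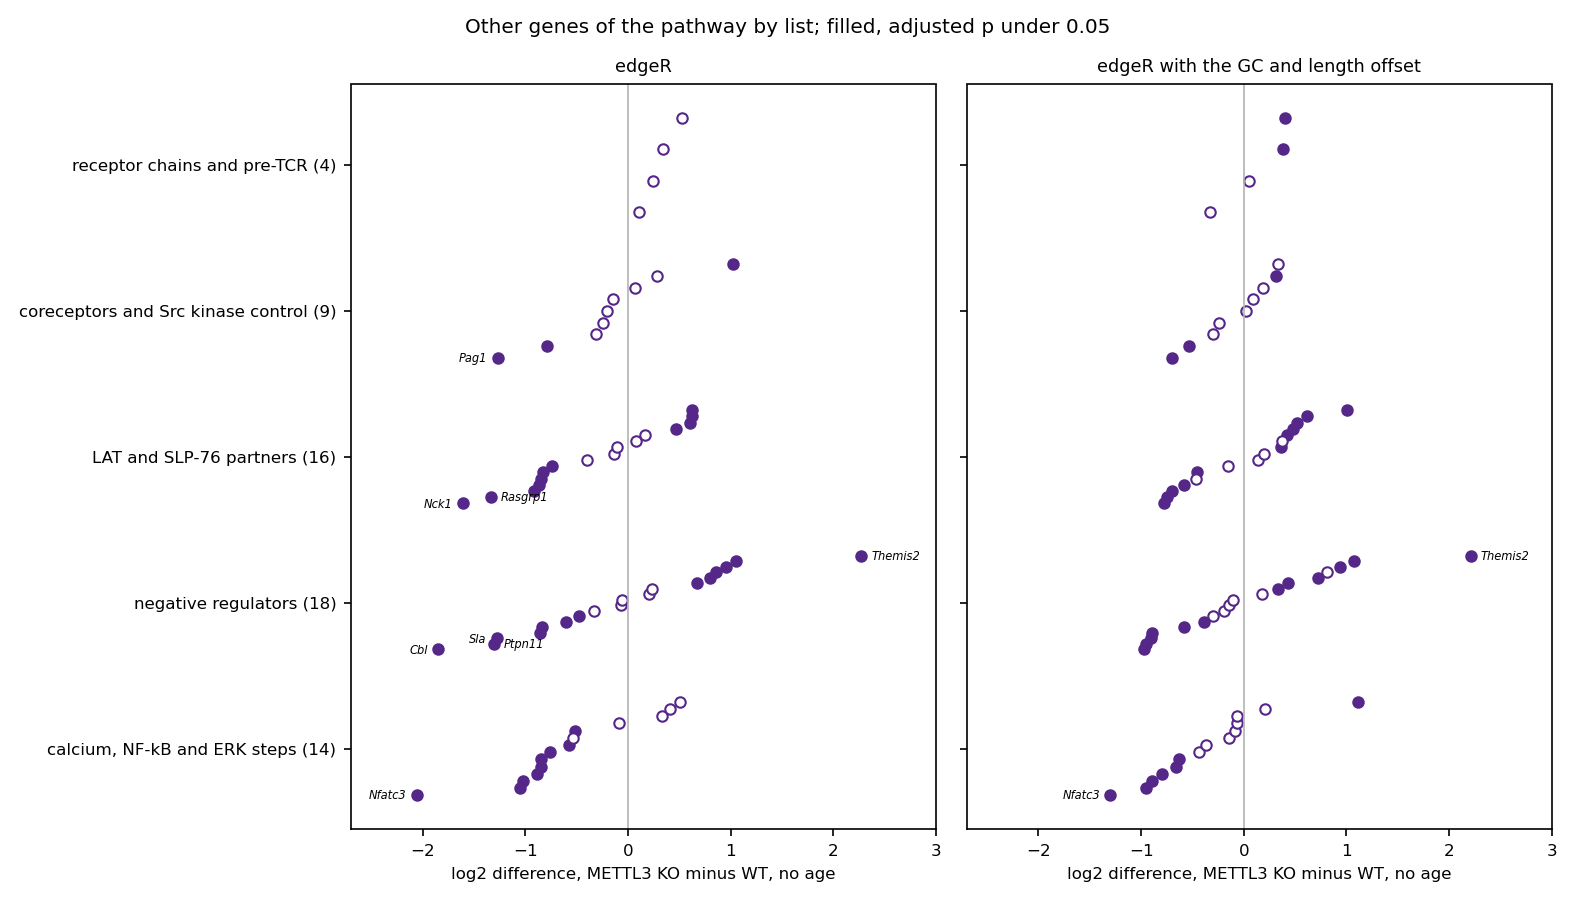
Log2 difference (METTL3 KO minus WT, no age) of each of 61 other pathway genes by list, from edgeR (left) and with the GC and length offset (right). Each point is a gene, filled where the adjusted p is under 0.05. Most filled points of the calcium, NF-kB and ERK list lie left of 0 in both panels.

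Old WT against young WT asked how age changed the same cells. No member was called in old WT, where 0.253% of 14228 genes tested were (36 genes), 0.127% higher and 0.127% lower. At an unadjusted p under 0.05, 2 of 10 members passed by edgeR, Cd3e and Lcp2, against 12.1% of all genes, and DESeq2 called 0. Cd3e had 445.7, 364.3, 415 and 366.7 CPM in old WT and 352, 318.5 and 319.3 CPM in young WT. All 4 old libraries lay above the 3 young ones, with a log2 difference of 0.27 ± 0.09 (adjusted p = 0.32, edgeR). Cd3e also shares 135 exonic bases with the antisense gene Gm48719, which had 1949, 1485, 1596 and 1494 counts in old WT and 1483, 1322 and 1192 in young WT, and the reads cannot be assigned by strand here.

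Lcp2 had 333.3, 346.2, 354.3 and 364.8 CPM in old WT and 328.9, 273.8 and 278.7 CPM in young WT. The groups did not overlap, but young WT replicate 1 lay close to the old libraries, and the log2 difference was 0.25 ± 0.09 (adjusted p = 0.316, edgeR). Groups that do not overlap were found for 2 of 10 members and for 9.78% of all genes. The log2 differences of the other 8 members lay between -0.12 and 0.21, and no 95% interval of a member reached beyond -0.45 or 0.48.

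Lat and Themis varied among the old WT libraries. Lat had 957.5 and 949.3 CPM in replicates 1 and 3, against 734 and 659.3 CPM in replicates 2 and 4, while young WT had 719.3, 688.4 and 735 CPM. Themis had 785.9 and 765.2 CPM in replicates 1 and 3, against 1109 and 1236 CPM in replicates 2 and 4, while young WT had 1009, 1070 and 1098 CPM. Old WT libraries high in Lat were thus low in Themis, and for Themis they lay on both sides of young WT. Not every member showed this order: Cd247 had 482.4, 438.8, 451.5 and 459.1 CPM in old WT replicates 1 to 4. Over all genes, replicate 1 lay nearer to replicates 2 and 4 (chi-square per gene of 20.3 and 33.5) than to replicate 3 (60.9). That measure uses raw counts, so genes with high counts weigh most in it. Mitochondrial transcripts took 9.59% of gene counts in replicate 3 and 2.29% in replicate 1, and their part in these distances was not tested.

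The ratio of Lat to Themis counts, chosen after its values were seen, was 1.22, 0.662, 1.24 and 0.533 in old WT replicates 1 to 4, 0.647, 0.647 and 0.624 in the libraries labelled young METTL3 KO, and 0.713, 0.644 and 0.67 in young WT. It was 8.12, 4.59 and 10.8 in METTL3 KO libraries without an age and 1.44, 1.96 and 1.0 in their WT counterparts. The top GC quintile exceeded the bottom one by 0.26 and 0.35 in old WT replicates 1 and 3, and by 0.00 and -0.07 in replicates 2 and 4. The coefficient of variation over the old WT libraries was 18.3% for Lat and 24.1% for Themis, against 3.32% and 4.27% over young WT libraries. Old WT replicate 3 also had the highest summed B cell (1780 CPM) and dendritic (597 CPM) markers of the set, whose part was not tested.

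**Figure D4:**
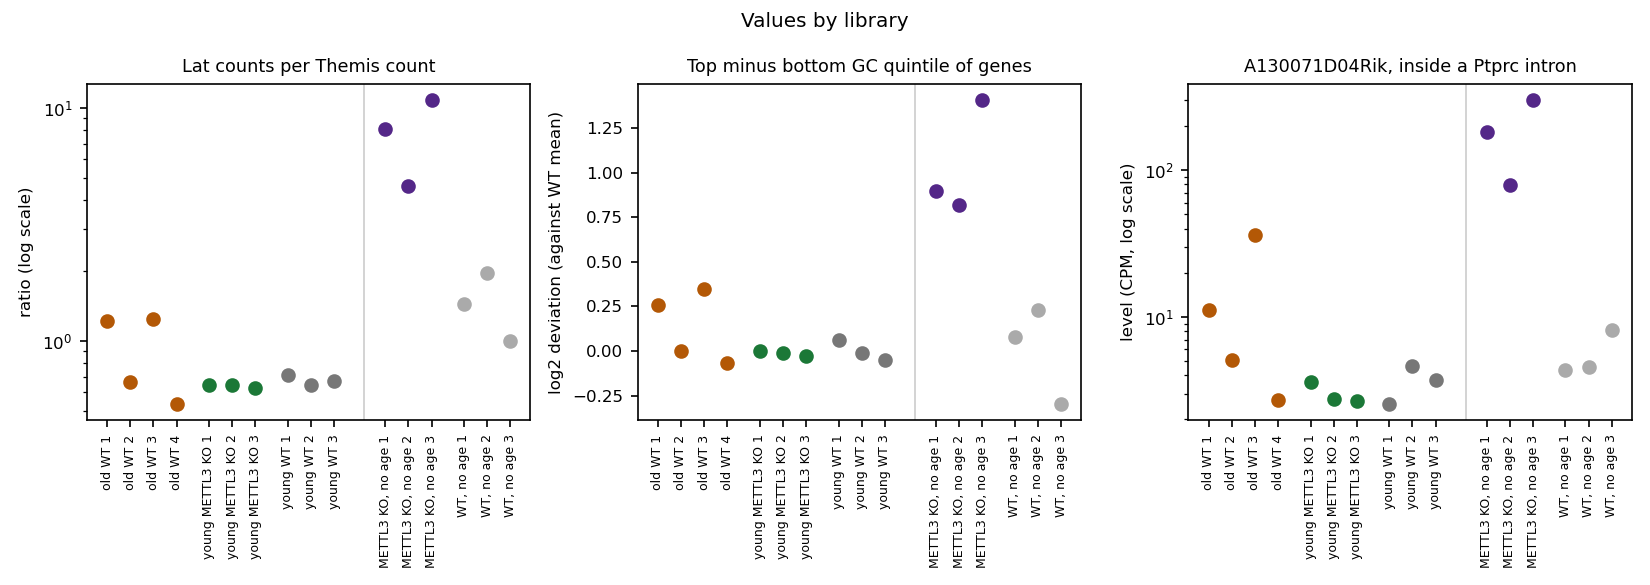
Values in each library: the ratio of Lat to Themis counts (log axis), the median log2 deviation of the top minus the bottom GC quintile of genes, and the level of A130071D04Rik in CPM (log axis). Libraries are grouped by colour, and the grey line separates the sets. Within the set with an age, old WT replicates 1 and 3 are the highest in all 3 panels, and within the other set the 3 METTL3 KO libraries lie above the 3 WT libraries in all 3 panels.

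None of the 61 other pathway genes was called in old WT. By edgeR, 9 (14.8%) passed at an unadjusted p under 0.05, all higher in old WT, which is near the 12.1% of all genes, and DESeq2 called 1. They include the calcineurin subunit gene Ppp3ca (0.50 ± 0.15), the kinase gene Tec (0.40 ± 0.10), Lax1 (0.35 ± 0.11), Nfatc1 (0.24 ± 0.10), Prkcq (0.19 ± 0.08), Cd5 (0.29 ± 0.09), a surface protein whose level is set by TCR signal strength, and Unc119 (0.66 ± 0.24). Their adjusted p-values lay between 0.183 and 0.384 (edgeR). The summed level of the 12 mature single-positive markers was 809 to 1250 CPM in old WT and 685 to 740 CPM in young WT, with 11 of the 12 above 0 in log2 difference (median 0.99) and 0 called, and their part in these values was not tested.

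The libraries labelled young METTL3 KO, set against the same young WT libraries, gave 0 members called, with 0% of 14228 genes called and 88 genes at an unadjusted p under 0.05. No member passed even unadjusted, the smallest p being 0.465 (edgeR), and DESeq2 called 0. Themis had 1145, 1147 and 1164 CPM in the libraries labelled young METTL3 KO and 1009, 1070 and 1098 CPM in young WT. It was the one member whose groups did not overlap, against 9.26% of all genes, with a log2 difference of 0.12 ± 0.16.

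Lat had 740.7, 742.2 and 726.8 CPM in the libraries labelled young METTL3 KO and 719.3, 688.4 and 735 CPM in young WT. Lck had 1828, 1911 and 1848 CPM against 1768, 1779 and 1830 CPM. Ptprc had 2550, 2509 and 2467 CPM against 2407, 2384 and 2495 CPM. The members' log2 differences lay between -0.03 and 0.12, and their 95% intervals stayed within -0.25 and 0.47. Among the other 61 genes 0 were called, and only Ptcra passed unadjusted (-0.34 ± 0.14, adjusted p = 1, edgeR).

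The differences of the 2 KO comparisons were set against each other in 1 fit of 12 libraries with an interaction of genotype and set. It called 5 of 10 members, against 36.9% of the 16557 genes tested. The difference without an age exceeded that in young libraries for Lat by 1.15 ± 0.21 (adjusted p = 0.000733), for Lck by 0.86 ± 0.19 (adjusted p = 0.00352) and for Zap70 by 0.64 ± 0.16 (adjusted p = 0.00571, edgeR). It was below it for Themis, at -1.35 ± 0.24 (adjusted p = 0.000789), and for Ptprc, at -0.56 ± 0.19 (adjusted p = 0.0337, edgeR). With the offset, Zap70 (-0.04, adjusted p = 0.85) and Ptprc (0.12, adjusted p = 0.397) changed sign and lost the call, while Lat (0.45, adjusted p = 0.00851), Lck (0.55, adjusted p = 0.0032) and Themis (-0.51, adjusted p = 0.031) stayed called with smaller differences (edgeR). Zap70 lost its call with no filter on low counts (adjusted p = 0.149) and without any one of the 6 young libraries (adjusted p = 0.0829 to 0.128), and Ptprc lost its call without WT replicate 3 of the set without an age (adjusted p = 0.0601). Cd3e (-0.30, adjusted p = 0.11) was not called in this fit, but was without any one of the 6 young or the 3 METTL3 KO libraries (adjusted p = 0.00811 to 0.0313). Cd3g (0.46, adjusted p = 0.0877) became called with the offset (0.47, adjusted p = 0.0132, edgeR). Lcp2 was at -0.16 (adjusted p = 0.412, edgeR), with a smallest adjusted p of 0.0264 over the alternatives (edgeR or DESeq2). The sets differ in library composition as well as in age label, with 50.5% to 52.2% of entries not aligned in the set without an age and 0.58% to 0.83% in the other, so their parts cannot be told apart. Antisense partners also differed between the sets: Gm48719, which overlaps Cd3e, had 1192 to 1949 counts in the set with an age and 31 to 215 in the other. Likewise 4930519F09Rik, which shares 153 exonic bases with Themis on the opposite strand, had 815 to 1501 counts in the set with an age and 0 to 5 in the other. How strand was handled in each set is not given in the sources used here, and its part in the interaction was not tested.

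A gene within Ptprc, chosen after its values were seen, was counted at far more unequal levels than any member. A130071D04Rik (mm10 chr1:138161820-138167683), a single-exon transcript model of 5864 bases on the same strand, lies in an intron of Ptprc and shares no exonic base with it. Its counts and intronic reads of Ptprc cannot be told apart here. Reads that matched no counted feature, which may include intronic reads, made up 13.3%, 15.03% and 11.9% of entries in METTL3 KO libraries without an age. In WT libraries they made up 7.59%, 7.23% and 7.60%. It had 2216, 900 and 4000 counts in METTL3 KO libraries without an age and 66, 71 and 125 counts in WT libraries, a log2 difference of 5.05 ± 0.52 (33.2-fold, adjusted p = 0.000177, edgeR). Its log2 difference was between 4.46 and 6.25 in all 12 alternatives, the offset included, while Ptprc counts were lower in every METTL3 KO library. With the offset, however, Ptprc was not lower (log2 0.16, adjusted p = 0.276, edgeR). In the other set A130071D04Rik had 115, 51, 335 and 28 counts in old WT, 36, 28 and 27 in the libraries labelled young METTL3 KO and 26, 46 and 37 in young WT. Old WT replicates 1 and 3, the libraries with the high ratio of Lat to Themis, were the highest, and the difference of old WT from young WT was not called (log2 1.91 ± 0.83, adjusted p = 0.412, edgeR).

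The genes whose log2 CPM ran most like the mean of the 10 members over the 10 libraries with an age were Zfp637 (Pearson r = 0.94), Tmed3 (0.92), Dbp (0.92), Arpc5l (0.91) and Rnf25 (0.91), out of 9384 genes of at least 5 CPM compared. The libraries share depth and composition, so these values only describe the ranking.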

How the data were processed

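RNA sequencing of sorted DP thymocytes gave 1 file of whole-number read counts per gene for each of 16 libraries, as deposited by the authors. The alignment used HISAT2 2.0.5 on mm10, per the submitters' processing notes. How reads were counted (program, gene models, strand) is not given in the sources used here. Summary lines at the end of each file stayed out of library sizes and tests. Reads that matched no counted feature, by these lines, made up 47.5% to 51.2% of entries with an age. They made up 11.9% to 15.0% in METTL3 KO and 7.23% to 7.60% in WT libraries without an age. Gene identifiers were matched to symbols for 55154 of 55335 and 54409 of 54532 genes, and coordinates came from the GENCODE annotation of mm10.

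Differences were tested on the counts by edgeR 4.0.16 under R 4.3.3 (filterByExpr, TMM, robust quasi-likelihood test, two-sided, Benjamini-Hochberg over all genes tested, threshold 0.05). The 10 libraries with an age shared 1 fit, the 6 without an age had their own, and 12 libraries entered the interaction. Gene lists are described by counts and medians. Some genes of the pathway are not reported here, and the counts leave them out. Members and lists were chosen with earlier results of these data known. Alternatives tried were DESeq2 1.42.0, its size factors, scaling by totals only, no filter, a replicate block, the groups alone and each library left out. The offset for GC content and transcript length (lowess span 0.3 per library) was added after the data were seen. Named pathway genes are those called without an age and, per list and comparison, the 2 of smallest p where that was under 0.05 unadjusted. Trbc2, Ptcra, Cd8a and Cd8b1 were named without an age to complete their families, and other genes for a call gained with the offset. Pathway genes are not named for the interaction. The procedure was tested on simulated data with known changes, where it missed part of them, and more of the smaller ones. Without an age and in the interaction it missed most of the larger changes and nearly all of the smaller ones. No 2 libraries of a group agreed within sampling noise (chi-square per gene of 3.48 or more). Promoters of 10 of 10 members were found in RefSeq's table. Figures used matplotlib 3.10.9 in Python 3.11.15.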

Additional observations from a re-analysis of the deposited data

Results flagged for a closer look

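For 5 members the difference between METTL3 KO and WT libraries without an age was unequal to the difference between the libraries labelled young METTL3 KO and young WT, by the interaction of genotype and set (edgeR, adjusted p under 0.05), against 36.9% of the 16557 genes tested. The difference without an age was larger by a log2 value of 1.15 for Lat, 0.86 for Lck and 0.64 for Zap70. It was lower by a log2 value of -1.35 for Themis and -0.56 for Ptprc. With the GC and length offset Zap70 (-0.04) and Ptprc (0.12) changed sign and lost the call, and Lat, Lck and Themis were at 0.45, 0.55 and -0.51. In all 3 METTL3 KO libraries without an age Lat, Lck and Zap70 lay above WT and Themis and Ptprc below, while the 3 young libraries of that label overlapped young WT for Lat, Lck, Zap70 and Ptprc. Mettl3 counts did not separate the young groups.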

How the results depend on the processing

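No member was called in old WT or in the libraries labelled young METTL3 KO under any alternative run. The number of genes called in old WT against young WT was 36, but 85 with no filter on low counts, 153 by DESeq2, 61 with a replicate block, 11 when those 2 groups were fitted alone, and 8 to 59 with each library left out in turn. In the young KO comparison it was 0, or 1 with no filter. Without an age, 4 to 7 members were called under the alternatives, against 6. Same-numbered libraries did not deviate together without an age (r of -0.11, -0.17 and -0.35 between METTL3 KO and WT). Between young METTL3 KO and young WT, r lay between -0.45 and 0.23. With so few libraries per group these values cannot exclude that the numbers pair the samples. The replicate block left 4 members called in that comparison, with Cd3e at an adjusted p of 0.0817 and Zap70 at 0.0781 (edgeR), and Ptprc at 0.116 in the interaction. The GC and length offset, chosen after seeing the data, turned Zap70 to -0.07 and Ptprc to 0.16 without an age, and to -0.04 and 0.12 in the interaction. Of all called genes without an age, 55.5% were higher, against 68.3% with the offset. In the interaction the share was 52%, against 36.3% with no filter and 32.7% to 34.2% without 1 of the 6 young libraries. The members' median log2 difference without an age, 0.09, was -0.11 with no filter and -0.23 without METTL3 KO replicate 3, and in the interaction, 0.18, it was -0.07 with no filter. The causes were not tested. Depth did not limit the members, whose lowest count in any library was 2045 (Zap70), so the spread between libraries sets the precision.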
